A study of Mus musculus with 6 samples.

Results

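Genes that encode the secreted proteins and characteristic enzymes of the adult liver, some of them also made by the visceral endoderm, were followed in RNA-Seq data of mouse advanced embryonic stem cells (ASCs). They are a list of 55 gene names, matched to the 54715 genes of the count table and drawn up with earlier results of these data known. Of these, 9 are genes also typical of the visceral endoderm (*Afp*, *Ttr*, *Apoe*, *Apom*, *Apob*, *Apoa1*, *Apoa4*, *Rbp4* and *Trf*), and 46 are other liver genes. Libraries came from 3 wild type (WT) replicates and 3 *Bdh2*-knockout replicates. Both genotypes go back to a cross of a female 129/sv mouse with a male that carries the GOF/GFP reporter of *Pou5f1* (*Oct4*). Both were grown on fibronectin in N2B27 medium with leukemia inhibitory factor, activin A, BMP4 and the GSK3 inhibitor CHIR99021. The knockout was made with Cas9 and a pair of sgRNAs against the start of the coding sequence, and the study went on with 1 homozygous clone, so that the effect of the genotype and of that clone cannot be told apart. Nothing says whether the replicates were separate cultures, so p-values measure the spread between these samples only.

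The visceral endoderm is the outer epithelium of the early embryo, where it takes up maternal proteins and secretes carrier proteins and apolipoproteins before a liver exists. Hepatocytes make many of the same proteins later, and add clotting proteins, urea cycle enzymes, cytochromes P450 and gluconeogenic enzymes. Albumin (*Alb*) is the most abundant product of the adult hepatocyte, whereas its neighbour and relative alpha-fetoprotein (*Afp*) marks the visceral endoderm and the fetal liver and is shut off after birth. The question put to the 6 libraries was which of these genes followed *Alb* from library to library within a genotype, and which followed the genotype.

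RefSeq promoter sequences (build GRCm38.p6) could be matched for 42 of the 55 genes. The 250 bases before the listed start of 4 of them are shown. These are the matched genes that hold the core motif of FOXA factors, and they include genes of both behaviours described here: *Apoh* and *Cyp3a11*, which kept the library order of *Alb*, and *Apoa2* and *Rbp4*, which did not. Capitals mark the FOXA core, with the letters TGTTTAC, read on either strand. The windows are chr11:108395047-108395296 (plus strand) for *Apoh*, chr5:145879855-145880104 (minus) for *Cyp3a11*, chr1:171224804-171225053 (plus) for *Apoa2* and chr19:38125322-38125571 (minus) for *Rbp4*, and each is written 5′ to 3′ in the direction of its gene.
Apoh: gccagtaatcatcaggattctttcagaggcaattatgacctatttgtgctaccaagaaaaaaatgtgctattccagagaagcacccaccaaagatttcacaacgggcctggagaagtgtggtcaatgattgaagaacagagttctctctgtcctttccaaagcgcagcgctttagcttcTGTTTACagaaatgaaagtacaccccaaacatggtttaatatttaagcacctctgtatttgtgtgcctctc
Cyp3a11: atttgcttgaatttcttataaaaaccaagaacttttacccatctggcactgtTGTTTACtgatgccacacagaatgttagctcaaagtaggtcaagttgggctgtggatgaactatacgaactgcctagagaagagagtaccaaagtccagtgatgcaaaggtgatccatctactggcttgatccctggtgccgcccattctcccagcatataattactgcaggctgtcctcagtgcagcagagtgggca
Apoa2: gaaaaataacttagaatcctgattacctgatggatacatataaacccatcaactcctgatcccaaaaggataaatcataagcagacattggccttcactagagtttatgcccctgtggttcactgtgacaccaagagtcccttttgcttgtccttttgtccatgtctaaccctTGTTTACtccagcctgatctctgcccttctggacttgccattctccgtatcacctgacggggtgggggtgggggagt
Rbp4: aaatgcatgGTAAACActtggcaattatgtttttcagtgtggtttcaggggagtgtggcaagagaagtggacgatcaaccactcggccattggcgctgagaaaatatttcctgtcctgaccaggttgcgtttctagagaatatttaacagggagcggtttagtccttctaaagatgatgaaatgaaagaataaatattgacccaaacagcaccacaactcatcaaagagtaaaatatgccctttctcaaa

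The core lay 71 bases before the listed start in *Apoh*, 77 in *Apoa2*, 198 in *Cyp3a11* and, on the opposite strand, 241 in *Rbp4*. The same letters were thus present in front of *Apoh*, which stood at 1.95% to 2.40% of the *Alb* count in every library, and of *Apoa2*, which ranged from 8.44% to 177% of it. *Apoh* had fewer than 10 counts in its lowest library, so its share is coarse there. The 4 genes are 9.52% of those matched, which have 48 listed promoters between them, and 3.17% of all 32851 promoters hold these letters. A share of genes is not the same unit as a share of promoters, since a gene with several promoters counts once. Of the other letters searched on both strands, the hepatocyte nuclear factor 4 (HNF4) core CAAAGTCCA was found for 1 gene, *Cyp3a11* (2.38%, against 0.384% of all promoters), and the C/EBP palindrome TTGCGCAA for 0 genes, against 0.164% of all promoters. These matches describe letters in a window and do not show binding.

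Depth ran from 18927748 to 28333541 gene counts per library, and 3 counts corresponded to 0.106 to 0.158 CPM (counts scaled to library size), the smallest level taken as measurable, which covers counting error only. Markers of pluripotency were high in all 6 libraries, where *Pou5f1* stood between 1389 and 1676 CPM, and the 10 pluripotent markers together at 7433 to 7646 CPM. *Bdh2* had 203, 193 and 209 counts in the WT replicates against 164, 136 and 129 in those of the knockout. This was a decrease (log2 fold change -0.79 ± 0.12, standard error (SE), Benjamini-Hochberg adjusted p = 0.00025 in the quasi-likelihood test of edgeR). Levels below are CPM with TMM library sizes, and log2 fold changes are knockout over WT with their SE from this edgeR fit of 3 against 3 replicates. A change was called at an adjusted p under 0.05 over 16758 genes, and the adjusted p given with each gene are from the same test. By this rule 5 of the 10 pluripotent markers were higher in knockout ASCs and 1 was lower, against 21% and 20.8% of all tested genes. In bulk RNA, fewer cells of a type and less RNA per cell cannot be told apart.

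*Alb* itself (chromosome 5, from 90460897 to 90476602 of GRCm38) differed more between replicates than between genotypes. It stood at 331, 197 and 22.01 CPM in WT replicates 1, 2 and 3 and at 17.3, 88.3 and 8.68 CPM in knockout replicates 1, 2 and 3. WT replicate 3 was thus below knockout replicate 2, and the genotypes overlapped. WT replicate 1 was 15.0 times as high as WT replicate 3 (95% exact counting interval 13.8 to 16.4), and knockout replicate 2 was 10.2 times as high as knockout replicate 3 (8.82 to 11.8). The ratio of group means was 4.82, WT over knockout, and the log2 fold change was -2.25 ± 0.77 (adjusted p = 0.032). That value rested on single libraries: it was -1.50 without WT replicate 1 (adjusted p = 0.17) and -3.79 without knockout replicate 2 (0.0032), and the call was also lost without WT replicate 2 or knockout replicate 1 or 3, with DESeq2 (0.15) and with limma-voom (0.078). Depth ran opposite to *Alb* in WT (18927748, 19819291 and 24945216 gene counts in replicates 1 to 3) and not in knockout libraries (28333541, 27842228 and 24320119), and its part in the result was not tested.

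Most of the genes repeated the order of *Alb*, that is WT replicate 1 above 2 above 3 and knockout replicate 2 above 1 above 3. Of the 55 genes 38 did so, *Alb* included, and of the 48 that passed the filter on low counts 36 did so, where 2.74% of all tested genes had this order. Among the 8 tested visceral endoderm genes 5 had it, and among the 40 other tested liver genes 31. With at least a 4-fold ratio between the highest and lowest library of *Alb* in both genotypes as well, 33 of the 48 remained, against 0.477% of all tested genes. Those that passed the filter had to be detected in 3 libraries, so that these shares describe the better detected genes. In all, 52 of the 55 genes had their highest level in WT replicate 1, and 51 had their highest knockout level in replicate 2. For 35 of the 55, *Alb* counted, the 95% interval of the ratio covered that of *Alb* in both genotypes, although these intervals are wide for genes with few counts.

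**Figure D1:**
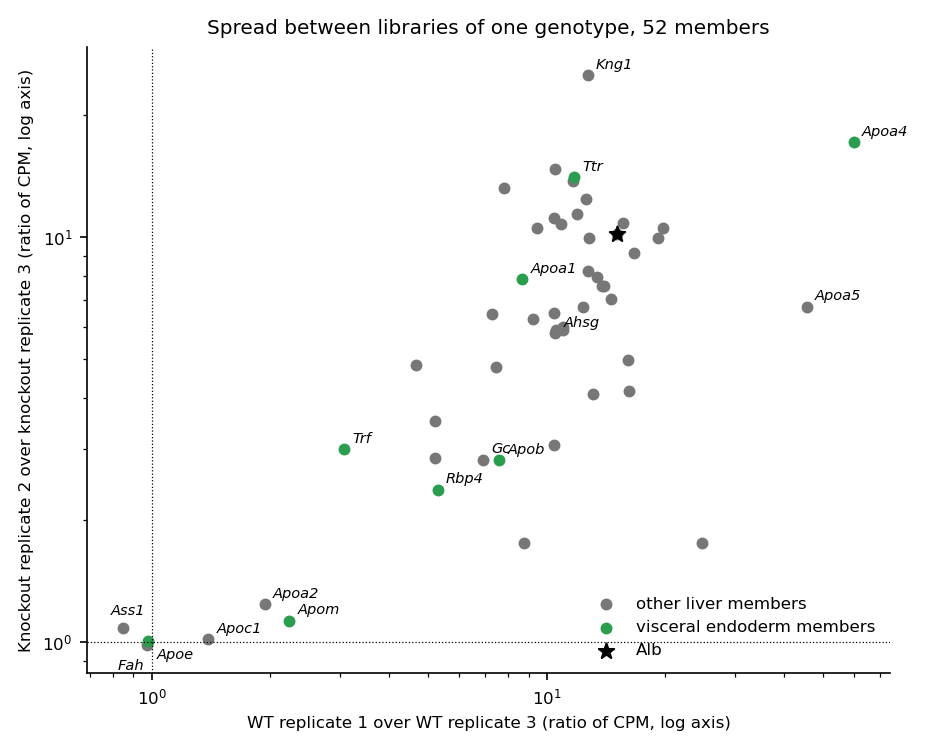
Ratio of CPM between WT replicates 1 and 3 (horizontal) against that between knockout replicates 2 and 3 (vertical), both on log axes, with 1 point per gene for the 52 genes with counts in both lower libraries. Most points lie around *Alb* (star, 15.0 and 10.2), whereas *Apoe*, *Ass1*, *Fah* and *Apoc1* lie near 1 on both axes.

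Members of the albumin family did not behave alike. *Gc*, the vitamin D binding protein encoded on the same chromosome, stood at 28.9, 16.9 and 4.20 CPM in WT replicates 1 to 3 and at 5.92, 11.7 and 4.13 CPM in knockout replicates 1 to 3, the order of *Alb* with a smaller range. Its log2 fold change of -1.16 ± 0.49 did not pass (adjusted p = 0.070). *Gc* was at -0.50 without WT replicate 1. It was called lower without WT replicate 3 (-1.64, adjusted p = 0.00086) and without knockout replicate 2 (-1.69, 0.027). *Afp* had 3, 1 and 0 counts in WT replicates and 3, 4 and 1 in knockout replicates, which is at or near the smallest measurable level in both genotypes, so no fold is given.

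Of 6 carriers of hormones, vitamins, iron and haem, 5 were lower in knockout ASCs at an adjusted p under 0.05, against 20.8% of all tested genes, and 5 had the library order of *Alb*. For 3 of the 6 (*Ttr*, *Hpx* and *Ambp*) the intervals of the ratios also covered those of *Alb* in both genotypes. Hemopexin (*Hpx*), which binds free haem, stood at 28.7, 16.9 and 2.06 CPM in WT replicates and at 1.85, 6.01 and 0.793 CPM in knockout replicates. Expressed as a share of the *Alb* count, it was 8.69%, 8.58% and 9.35% in WT replicates and 10.7%, 6.81% and 9.13% in knockout replicates, nearly constant while *Alb* changed. Transthyretin (*Ttr*), carrier of thyroxine and of the retinol binding protein, was at 24.2, 16.1 and 2.06 CPM in WT and at 1.63, 6.45 and 0.459 CPM in knockout replicates. As a share of *Alb*, *Ttr* ranged from 5.29% to 9.45%. The other 3 that passed were haptoglobin (*Hp*, -2.06 ± 0.70), *Ambp* (-2.67 ± 0.72), which encodes alpha-1-microglobulin and bikunin, and *Rbp4*, which carries retinol. DESeq2, limma-voom and the fit without WT replicate 1 called 0 of these 6, and *Hpx* ran from -1.66 without WT replicate 1 to -3.52 without knockout replicate 2.

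*Rbp4* and transferrin (*Trf*), the iron carrier, kept a part that did not move with *Alb*. *Rbp4* stood at 11.7, 6.59 and 2.22 CPM in WT replicates and at 1.74, 4.77 and 2.003 CPM in knockout replicates, a ratio of 5.30 between WT replicates 1 and 3 and of 2.38 between knockout replicates 2 and 3. For *Trf* the levels were 9.01, 8.32 and 2.93 CPM and 3.30, 5.13 and 1.71 CPM. Its ratios were 3.08 and 3.00, both below the intervals of *Alb*, and its log2 fold change was -0.96 ± 0.38 (adjusted p = 0.055). Of the 50-base stretches of the longest *Trf* transcript, 79.8% also occur in other annotated genes, of which *Gm20425* shares most, so how its reads were divided is uncertain.

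Apolipoproteins, the protein part of lipoproteins, were split between these patterns, with 3 of 10 lower in knockout ASCs, against 20.8% of all tested genes, and 7 not called. *Apoa1* of high density lipoprotein (27.5, 16.8 and 3.17 CPM in WT replicates, 1.52, 8.54 and 1.08 CPM in knockout replicates), *Apoc3* and *Apoh* fell, by 2.04, 2.23 and 2.25 on the log2 scale. These 3 calls were lost with DESeq2 (adjusted p = 0.12 to 0.15), with limma-voom and without WT replicate 1 or 2 or knockout replicate 1 or 3, and *Apoa1* ran from -1.37 without WT replicate 1 to -3.55 without knockout replicate 2. *Apoa4*, an apolipoprotein of intestine, liver and yolk sac, was counted 92, 54 and 2 times in WT replicates and 6, 39 and 2 times in knockout replicates, and *Apoa5* was low in the same libraries (2 to 4 counts in WT replicate 3 and knockout replicates 1 and 3). Neither passed (adjusted p = 0.081 and 0.072). Opposite-strand exons of other genes cover 69.8% of the *Apoa4* exon bases and 20.8% of those of *Apoa5*, and the strand setting of the counting is not stated.

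*Apob*, the structural protein of very low density lipoprotein, and *Apoa2* and *Apom* of high density lipoprotein moved only in part with *Alb*. *Apob* stood at 19.5, 13.2 and 2.57 CPM in WT replicates and at 3.38, 8.21 and 2.92 CPM in knockout replicates. *Apoa2* stood at 27.9, 22.5 and 14.4 CPM in WT replicates and at 15.1, 19.0 and 15.4 CPM in knockout replicates. *Apom* was low throughout, with 7 to 24 counts per library. None of the 3 passed (adjusted p = 0.068 for *Apob*, 0.10 for *Apoa2* and 0.10 for *Apom*).

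*Apoe*, a ligand of lipoprotein receptors that many tissues make, and *Apoc1*, encoded next to it, did not follow *Alb*. *Apoe* (chromosome 7, from 19696109 to 19699188) stood at 1240.5, 1357 and 1264 CPM in WT replicates and at 1283, 1280.5 and 1269 CPM in knockout replicates. The genotypes overlapped and the log2 fold change was -0.01 ± 0.05. Per length it was the highest of the 55 genes, with a mean of 599 fragments per kilobase, scaled to library size (FPKM), over the 6 libraries against 48.0 FPKM for *Alb*. *Apoc1* stood at 25.96, 25.4 and 18.6 CPM in WT and at 21.6, 17.8 and 17.5 CPM in knockout replicates (log2 fold change -0.29 ± 0.12, adjusted p = 0.063).

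**Figure D2:**
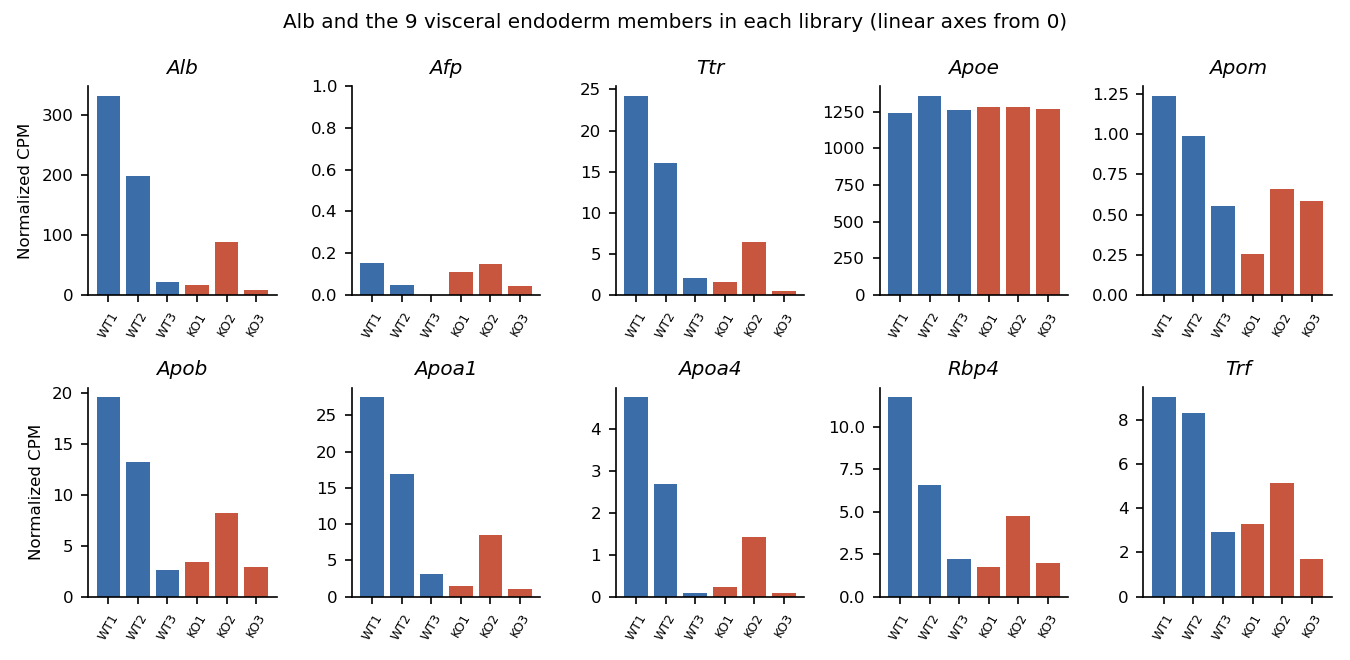
CPM of *Alb* and of the 9 visceral endoderm genes (bars) in WT replicates 1 to 3 (blue) and knockout replicates 1 to 3 (red), each on its own linear axis from 0. Of the 9, 6 have the library order of *Alb* (*Afp*, *Ttr*, *Apob*, *Apoa1*, *Apoa4* and *Trf*). *Apoe* is level near 1240.5 to 1357 CPM, and *Afp* is at or near 0.

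To separate a level that moves with *Alb* from one that does not, a straight line of CPM on *Alb* was fitted with a common slope and one intercept per genotype, an estimate chosen after seeing the data and given without a test. For *Hpx* the intercepts were 0.38 ± 0.61 CPM (SE) in WT and 0.04 ± 0.32 CPM in knockout ASCs, and for *Ttr* 0.48 ± 0.41 and -0.03 ± 0.20 CPM. Levels of these genes thus extrapolated to near 0 without *Alb*. *Gc* kept 2.27 ± 0.62 CPM in WT and 4.05 ± 0.42 CPM in knockout ASCs, and *Apob* kept 1.31 ± 0.35 and 2.53 ± 0.24 CPM. The knockout intercept was higher by 1.78 ± 0.69 CPM for *Gc* and by 1.22 ± 0.39 CPM for *Apob*. It was also higher for *Apoa2* (1.29 ± 0.40 CPM) and for *Apoa4* (0.24 ± 0.05 CPM), the latter with intercepts below 0 in both genotypes. Others went the opposite way, with knockout minus WT at -7.44 ± 1.95 CPM for *Fah* and -0.89 ± 0.50 CPM for *Apoa1*. For *Serpina1e* and *Ahsg* it was -0.43 ± 0.21 and -0.34 ± 0.16 CPM, so the genes shared no direction. For *Rbp4* the intercepts were alike, at 1.38 ± 0.47 and 1.59 ± 0.28 CPM, and most of the *Apoa2* level, 13.5 ± 0.37 and 14.8 ± 0.23 CPM, did not depend on *Alb*. When *Alb* entered the edgeR fit as a covariate, *Gc* and *Apob* had log2 fold changes of 0.27 ± 0.18 and 0.28 ± 0.19, the opposite sign, and did not pass (adjusted p = 0.25 and 0.29).

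**Figure D3:**
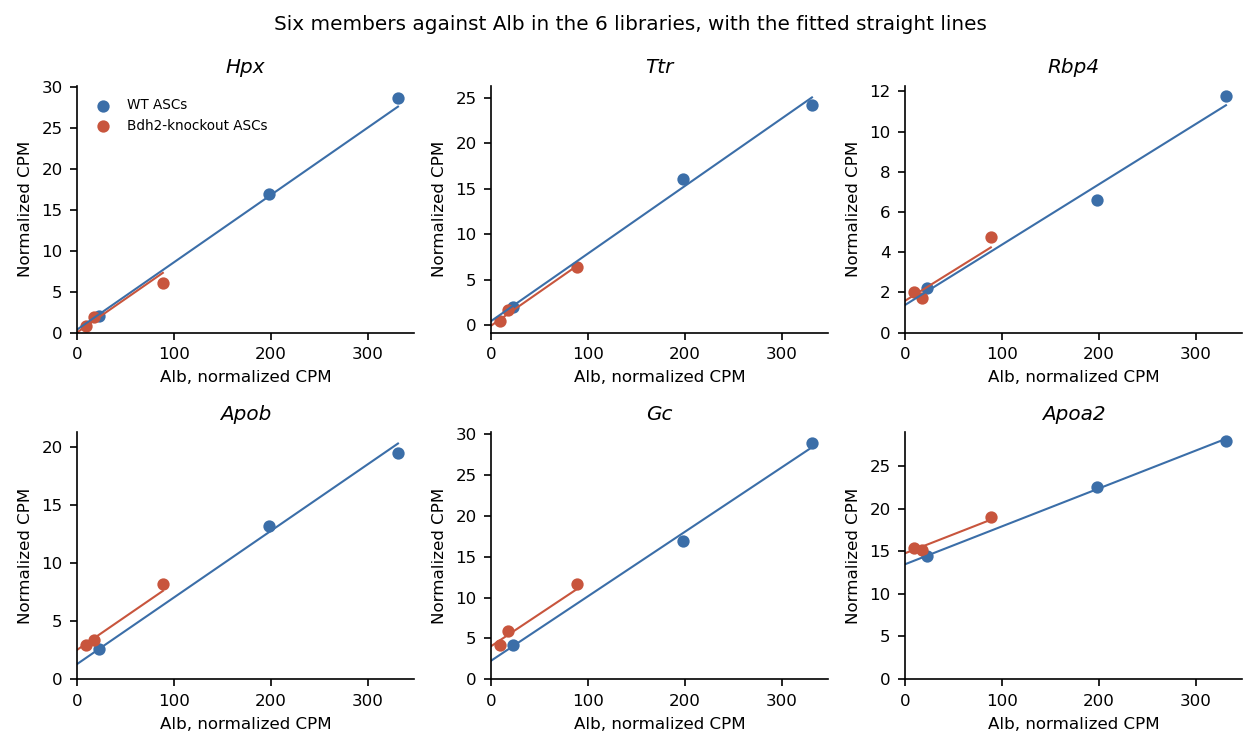
CPM of 6 genes against CPM of *Alb*, with 1 point per library (WT blue, knockout red) and the fitted lines, on linear axes. *Hpx* and *Ttr* pass close to the origin, whereas *Gc* (4.05 CPM), *Apob* (2.53 CPM) and *Apoa2* (14.8 CPM) keep a level in knockout ASCs at an *Alb* of 0.

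Of 9 protease inhibitors of plasma all were called lower in knockout ASCs, against 20.8% of all tested genes, and 8 had the library order of *Alb*. DESeq2, limma-voom and the fit without WT replicate 1 each called 1 of the 9, *Serpina1e*. *Ahsg*, encoding the mineral-binding fetuin A, was the highest of them per length (mean 7.70 FPKM) and stood at 47.1, 29.4 and 4.47 CPM in WT and 3.56, 13.3 and 2.30 CPM in knockout replicates. Antithrombin (*Serpinc1*), *Serpina3k*, *Itih3* and *Itih4* ranged from -2.01 to -2.29 on the log2 scale. With single libraries left out, these 4 ran from -0.99 (*Itih3* without WT replicate 1) to -4.10 (*Itih4* without knockout replicate 2). Their calls were also lost without WT replicate 2 or knockout replicate 1 or 3. *Serpina1e* differed from the rest, because all 3 knockout libraries (0.218, 0.403 and 0.0835 CPM) were below all WT libraries (2.22, 2.03 and 0.475 CPM), with a log2 fold change of -2.66 ± 0.58 (adjusted p = 0.0026). These are 2 to 43 counts, the call was lost without the 3 libraries highest in *Alb* (adjusted p = 0.17), and 35.6% of the 50-base stretches of its transcript occur in other genes, of which *Serpina1d* shares most. For *Serpina1a* and *Serpina1c* the part found in other genes was 67.4% and 74.2%, and each shared most with the other, so these paralogs cannot be read singly.

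Fibrinogen chains *Fga*, *Fgb* and *Fgg*, which form the clot, and *Kng1*, the kininogen precursor of bradykinin, all 4 had the order of *Alb* and were called lower (-1.99 to -2.20 on the log2 scale), where 2.74% of all tested genes had the order and 20.8% were called lower. All 4 calls were lost with DESeq2, with limma-voom and without WT replicate 1 or 2 or knockout replicate 1 or 3, and the log2 fold changes ran from -1.40 (*Fga* without WT replicate 1) to -3.56 (*Fgb* without knockout replicate 2). *Fga* stood at 16.5, 9.02 and 1.23 CPM in WT and at 1.09, 3.997 and 0.501 CPM in knockout replicates. Relative to *Alb* it stayed between 4.53% and 6.30%, the steadiest of the fibrinogen chains.

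Enzymes of nitrogen and amino acid metabolism held both extremes. *Cps1*, the first enzyme of the urea cycle, had the order of *Alb* and did not pass (adjusted p = 0.076). *Ass1*, argininosuccinate synthase, which also serves arginine synthesis outside the liver, stood at 170.0, 156 and 200.4 CPM in WT replicates and at 209, 250.3 and 231 CPM in knockout replicates. All knockout libraries were above all WT libraries, and it was the only one of the 55 genes called higher (log2 fold change 0.39 ± 0.08, adjusted p = 0.0026). Of the 50-base stretches of its transcript 55.3% occur in other genes, of which *Gm5424* shares most. *Fah*, which ends tyrosine breakdown, stood at 38.9, 39.2 and 40.1 CPM in WT and at 35.5, 31.3 and 31.8 CPM in knockout replicates, without overlap (-0.26 ± 0.06, adjusted p = 0.0038). In contrast *Tat* and *Hpd*, which start the same pathway, fell by 2.30 and 2.46 on the log2 scale, and *Tat* kept between 1.44% and 1.68% of the *Alb* count in every library. *Tat* had fewer than 10 counts in its lowest library, so its share is coarse there. *Mat1a*, which makes S-adenosylmethionine, fell by 2.41. The calls of *Tat*, *Hpd* and *Mat1a* were lost with DESeq2 (adjusted p = 0.14, 0.082 and 0.13), with limma-voom and without WT replicate 1 or knockout replicate 1 or 3, and *Tat* ran from -1.53 without WT replicate 1 to -3.78 without knockout replicate 2. *Tat* and *Mat1a* also lost their calls without WT replicate 2 (adjusted p = 0.074 and 0.072). *Ftcd* of histidine breakdown did not pass (-1.90 ± 0.75, adjusted p = 0.056), although DESeq2 (adjusted p = 0.030) and the fit with plain library totals (0.048) called it lower.

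The remaining enzymes and regulators were weakly detected. The cytochromes *Cyp2e1*, *Cyp3a11* and *Cyp2c29* fell by 2.53, 1.92 and 2.13 on the log2 scale, with 128 to 191 counts in WT replicate 1 and 3 to 11 in knockout replicate 3. Their calls were lost with DESeq2 (adjusted p = 0.097, 0.21 and 0.17), with limma-voom and without WT replicate 1 or knockout replicate 1 or 3, and *Cyp2e1* ran from -1.63 without WT replicate 1 to -4.39 without knockout replicate 2. *Cyp3a11* and *Cyp2c29* also lost their calls without WT replicate 2 (adjusted p = 0.14 and 0.091). Gluconeogenic *Fbp1* fell by 1.94, a call lost with DESeq2 (adjusted p = 0.11), with limma-voom (0.078) and without WT replicate 1 (-0.92, 0.26) or knockout replicate 1 or 3. *Pck1* (-1.86 ± 0.73) and *G6pc* (-1.67 ± 0.78) had the order of *Alb* and did not pass. They were at -1.14 and -0.65 without WT replicate 1. Both were called lower without WT replicate 3 (adjusted p = 0.0017 and 0.026) and without knockout replicate 2 (0.013 and 0.014). Of the hepcidin axis, which limits iron release, *Tmprss6* fell by 2.03, a call lost without WT replicate 1 or knockout replicate 1 or 3 (adjusted p = 0.061 to 0.11), and hepcidin itself (*Hamp*, 37, 16 and 3 counts in WT and 3, 17 and 3 in knockout replicates) did not pass. *Mup3*, a major urinary protein made by adult liver, was counted 63, 43 and 11 times in WT and 3, 38 and 7 times in knockout replicates.

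The filter left out 7 genes, *Afp*, *Baat*, *Acox2*, *Acsm1*, *Hamp2*, *Ugt2b1* and *Mup20*, with at most 27 counts in any library. *Acsm1* and *Acox2*, for acyl-CoA and bile acid side chain metabolism, were highest in WT replicate 1 with 27 and 24 counts and had 1 to 8 counts in the knockout libraries. Two-sided exact permutation tests on log2(CPM + 0.1) of these 7 genes gave p from 0.2 to 0.7, adjusted 0.35 to 0.7, where 3 against 3 replicates cannot go below 0.1.

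Between genotypes, 1 of the 48 tested genes was higher in knockout ASCs and 31 were lower, against 21% and 20.8% of all tested genes. Of the 8 tested visceral endoderm genes 0 were higher and 3 were lower (*Ttr*, *Apoa1* and *Rbp4*, the last at an adjusted p of 0.048), and of the 40 other liver genes 1 was higher and 28 were lower. Fold changes of the visceral endoderm genes had a median of -1.24 on the log2 scale, and those of the other liver genes -2.06, where all tested genes had -0.01. Few of these calls came with separated replicates: all knockout libraries were above all WT libraries for 1 tested gene (*Ass1*) and below for 2 (*Serpina1e* and *Fah*), against 26.3% and 26.1% of all tested genes. For 45 of the 48 the genotypes overlapped.

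The number of lower genes depended on single libraries and on the test. It was 2 without WT replicate 1, 9 without WT replicate 2, 4 without knockout replicate 1 and 3 without knockout replicate 3. Without WT replicate 3 or knockout replicate 2 it was 50 and 46, each of 52 tested. Calls over all tested genes, in either direction, numbered 6007 of 17183 and 5755 of 17150 without WT replicates 1 and 2. They numbered 5836 of 17232 and 5668 of 17345 without knockout replicates 1 and 3. Without WT replicate 3 or knockout replicate 2 they were 7409 of 17234 and 5613 of 17247. DESeq2 called 5 lower (*Apoc1*, *Serpina1e*, *Fah*, *Ftcd* and *Tmprss6*) and limma-voom 3 (*Serpina1e*, *Fah* and *Tmprss6*). With *Alb* as a covariate 2 remained lower, *Serpina1e* and *Fah*, with *Ass1* higher. Calls in either direction with DESeq2, limma-voom and the covariate were 6107, 6898 and 5282 of 16758 tested genes. A further fit left out the 3 libraries highest in *Alb* (WT replicates 1 and 2 and knockout replicate 2), a choice made after seeing the data. Here the lone WT library was assumed to vary like the knockout libraries, so no call is counted. *Alb*, whose level set the choice, was at -0.75 on the log2 scale. *Hp*, *Apoa1*, *Serpina3k* and *Fah* were at -1.04, -1.27, -1.40 and -0.25, and *Ass1* at 0.13. *Gc*, *Apoe*, *Apob*, *Apoa2*, *Apoc1* and *Pck1* turned positive. *Fah* was called lower in each of the other settings given here. The 3 visceral endoderm calls were lost without WT replicate 1 or 2 or knockout replicate 1 or 3 (0 lower), and 7 and 6 were lower without WT replicate 3 and without knockout replicate 2.

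**Figure D4:**
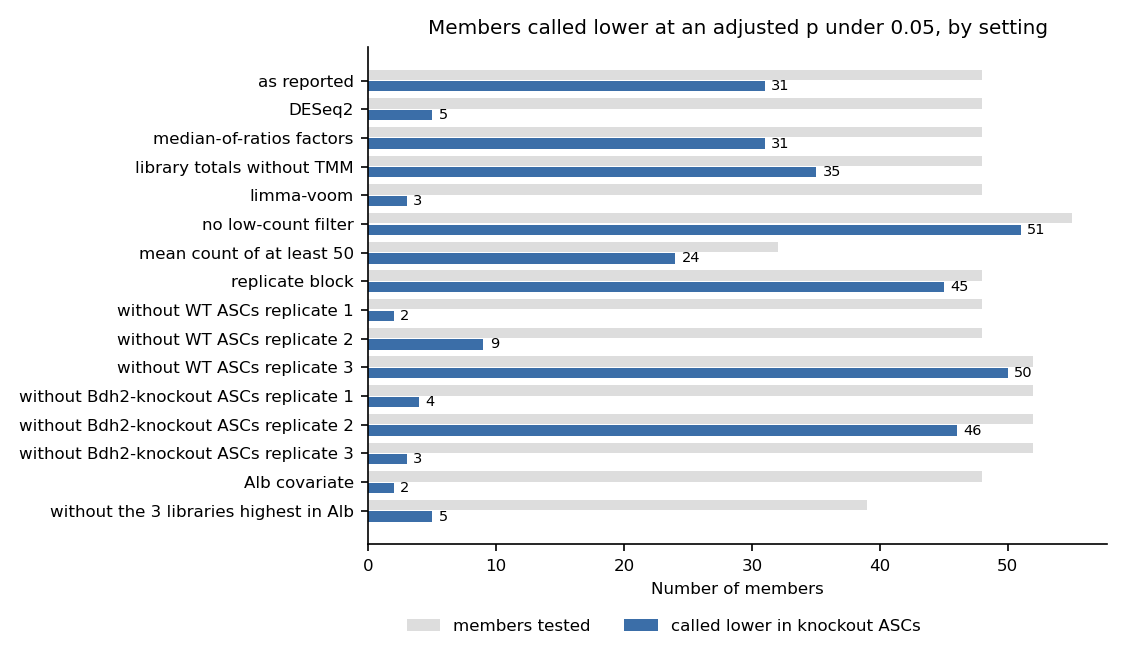
Number of the 55 genes tested (grey) and called lower in *Bdh2*-knockout ASCs at an adjusted p under 0.05 (blue) as reported and under each alternative. The number lower was 31 as reported and ranged from 2 to 51.

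Genes outside the 55 with the same profile were sought over the whole table. The order of *Alb* with at least a 4-fold ratio in both genotypes was found for 80 tested genes, 33 of the 55 and 47 others. By mean CPM, which takes no account of gene length, the highest of the others included *C3*, *Pzp*, *Bhmt*, *Vtn*, *Ces1c*, *Adh1*, *Cp* and *Mug1*. These encode, among others, complement component 3, vitronectin, ceruloplasmin and alcohol dehydrogenase. Of the 47 others, 13 are in a list of 35 other adult hepatocyte genes. Complement *C3* stood at 44.6, 27.0 and 2.97 CPM in WT and at 2.79, 11.2 and 1.84 CPM in knockout replicates. Of the 35 listed genes, 30 were tested, 0 were higher, 16 were lower and 16 had the order of *Alb*, against 21%, 20.8% and 2.74% of all tested genes. The number lower was 5 without WT replicate 1 or knockout replicate 1 or 3, 9 without WT replicate 2, and 27 and 24 without WT replicate 3 and knockout replicate 2. It was 5 with DESeq2 and 3 with *Alb* as a covariate.

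Markers of other liver cells were examined as sums. The 8 Kupffer cell markers together stood at 3.09, 1.98 and 0.435 CPM in WT replicates and at 0.0726, 0.660 and 0.0417 CPM in knockout replicates, where knockout replicates 1 and 3 were below the smallest measurable level. Of these, *Cd5l* was counted 24, 17 and 3 times in WT and 0, 5 and 0 times in knockout replicates, *Clec4f* 9, 6 and 0 times and 0, 1 and 0 times, and *Timd4* 0 times in all. The 7 erythroid markers summed to 1.85, 1.39 and 1.15 CPM in WT and to 0.653, 1.06 and 0.960 CPM in knockout replicates. *Hba-a1* was counted 10, 5 and 2 times and 1, 3 and 0 times, *Slc4a1* 7, 8 and 11 times and 8, 10 and 10 times, and *Hbb-bt* was at 0. The sums over 6 sinusoidal endothelial markers were 2.42, 2.18 and 0.950 CPM and 1.27, 1.58 and 1.25 CPM, with *Lyve1* at 0 to 2 counts. The 5 stellate cell markers summed to 17.0 to 20.1 CPM and 6 fibroblast markers to 21.6 to 32.3 CPM in all libraries, and of 5 kidney tubule markers *Umod*, *Kap* and *Slc22a6* were at 0 counts in every library. Of 5 pancreatic acinar markers, which summed to 2.58 to 3.86 CPM in WT and 0.980 to 1.88 CPM in knockout ASCs, *Prss2* was at 0 and *Cpa1*, *Ctrb1* and *Pnlip* reached 1 count. The fifth, *Cela1*, was counted 75, 52 and 75 times in WT and 27, 33 and 44 times in knockout replicates and was called lower (-1.23 ± 0.25). The 5 enterocyte markers summed to 0.991 to 1.29 CPM in WT and 0.626 to 0.953 CPM in knockout ASCs, and 5 skeletal muscle markers to 144 to 154 CPM and 245 to 265 CPM, nearly all of it *Mylpf*. Few of these markers passed the filter. Of 2 tested stellate markers 1 was called higher and 1 lower. Lower calls were 1 of 1 erythroid, 1 of 2 sinusoidal and 1 of 5 fibroblast markers tested. Of 2 tested muscle markers 1 was higher, where 21% of all tested genes were higher and 20.8% lower. The part of these cells in the result was not tested.

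Regulators of the hepatic and endoderm programme moved in both directions. Of 23 transcription factors 17 were tested, of which 7 were higher, 4 were lower and 6 were not called, against 21% higher and 20.8% lower of all tested genes. The order of *Alb* was found for 0 of the 17, where 2.74% of all tested genes had it. *Sox17* and *Sox7* of early endoderm rose by 3.00 ± 0.16 and 2.75 ± 0.23 on the log2 scale, *Foxa2* by 2.66 ± 0.38, and *Gata6* and *Gata4* by 2.02 ± 0.17 and 1.89 ± 0.09. *Gata4* stood at 5.20, 5.50 and 6.25 CPM in WT and at 19.999, 20.7 and 22.4 CPM in knockout replicates, well apart. Among the lower factors *Foxa3* fell by 0.68 ± 0.18, *Cebpa* by 0.54 ± 0.19 and *Hnf4a* by 0.47 ± 0.17 on the log2 scale. *Hnf4a* stood at 4.17, 4.41 and 4.04 CPM in WT and at 2.79, 3.70 and 2.55 CPM in knockout replicates and lost its call with DESeq2 (adjusted p = 0.072), with *Alb* as a covariate (0.23) and without any 1 of 5 libraries. *Cebpa* lost its call without WT replicate 1 (adjusted p = 0.12) or knockout replicate 1 (0.14) and with *Alb* as a covariate (0.13). Without the 3 libraries highest in *Alb*, a fit with 1 WT library, *Hnf4a*, *Cebpa* and *Foxa3* were at -0.59, -0.51 and -0.52 on the log2 scale and did not pass (adjusted p = 0.056, 0.13 and 0.13). *Nr5a2*, at 70.6 to 96.4 CPM, rose by 0.23 ± 0.07 and lost its call with plain library totals (adjusted p = 0.057) and without WT replicate 1 or 2 or knockout replicate 2 (0.068 to 0.091). With *Alb* as a covariate *Nr5a2* was at 0.20 (adjusted p = 0.064), and without the 3 libraries highest in *Alb* at 0.03 (0.79). *Hhex*, *Prox1*, *Foxa1*, *Zhx2*, *Creb3l3* and *Zbtb20*, the last a repressor of *Afp*, did not pass.

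Of 8 visceral endoderm genes outside the 55, for protein uptake, signalling and other roles, 7 rose in knockout ASCs, against 21% of all tested genes. In these 7 all knockout libraries were above all WT libraries, as in 26.3% of all tested genes. Of the 8 tested visceral endoderm genes among the 55, 0 were higher. *Cubn*, the receptor that with *Amn* and *Lrp2* takes up vitamin B12 carriers, albumin and apolipoprotein A1, stood at 0.670, 1.14 and 1.07 CPM in WT and at 11.5, 15.4 and 12.9 CPM in knockout replicates, a rise of 3.77 ± 0.18 on the log2 scale. Its adaptor *Dab2* rose by 2.61 ± 0.11, *Ihh* by 2.18 ± 0.26, *Spink1* by 2.12 ± 0.20, *Lrp2* by 1.90 ± 0.14 and *Amn* by 1.28 ± 0.17. *Pla2g12b* rose by 1.24 ± 0.46 on 2 to 24 counts and lost its call under 9 of 14 alternatives, DESeq2 among them (adjusted p = 0.095). The eighth gene, *Fabp1* of fatty acid transport, had the order of *Alb* (5.82, 3.32 and 0.594 CPM in WT, 0.363, 1.83 and 0.125 CPM in knockout replicates) and was called lower (adjusted p = 0.040). That call was lost with *Alb* as a covariate (-0.03, adjusted p = 0.96), with DESeq2 (0.19), with limma-voom (0.11) and without the 3 libraries highest in *Alb* (0.23). *Fabp1* also lost it without WT replicate 1 or 2 or knockout replicate 1 or 3, and its log2 fold change ran from -1.26 without WT replicate 1 to -3.63 without knockout replicate 2.

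**Figure D5:**
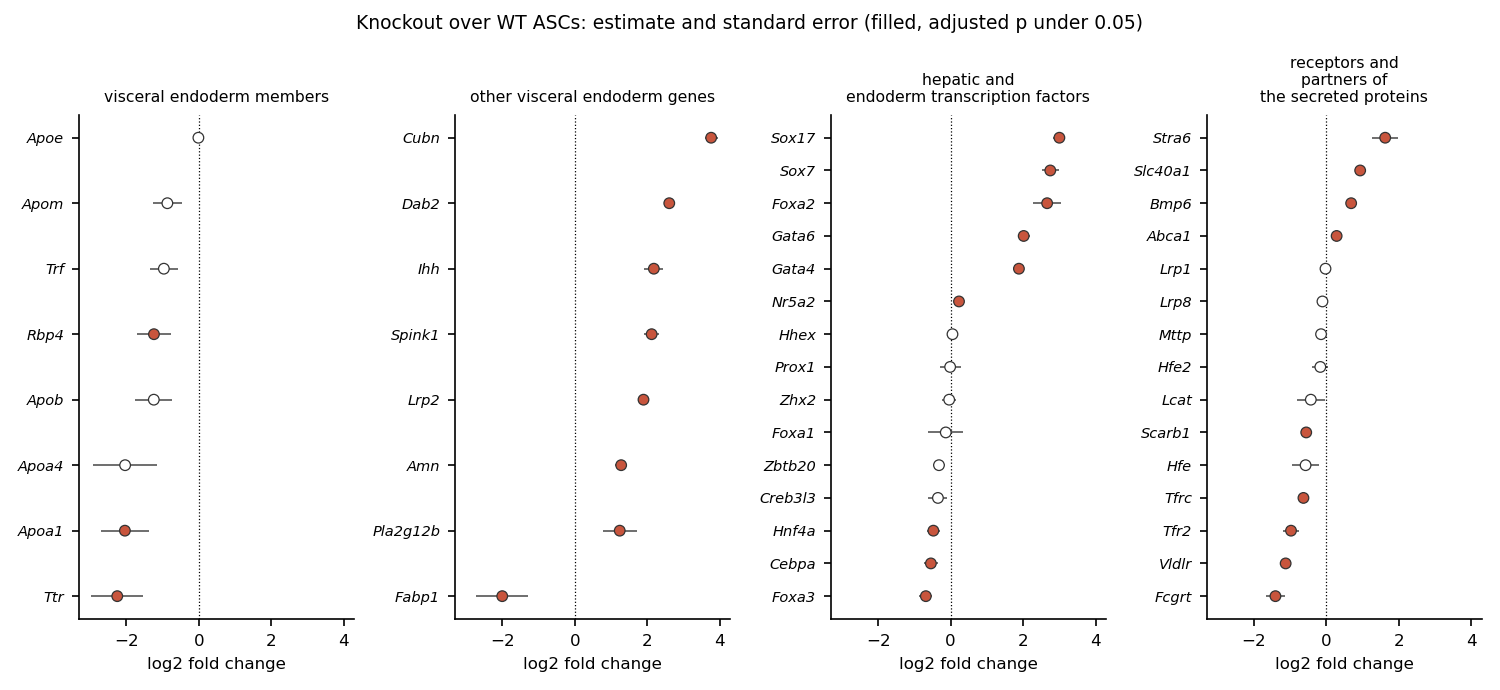
Log2 fold change (knockout over WT ASCs) with its SE for tested visceral endoderm members, other visceral endoderm genes, transcription factors and receptors or partners, where filled points had an adjusted p under 0.05. *Cubn* (3.77) and *Sox17* (3.00) are far to the right, while no visceral endoderm member is to the right of 0.

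Receptors and partners of the secreted proteins were called in shares near those of all tested genes. Of 17 genes 16 were tested, 5 were higher and 5 were lower, against 21% and 20.8%, and 6 were not called. The order of *Alb* was found for 0 of the 16, where 2.74% of all tested genes had it. For lipoproteins, the cholesterol exporter *Abca1* rose by 0.28 ± 0.07 on the log2 scale. *Vldlr* fell by 1.13 ± 0.13 and *Scarb1*, the high density lipoprotein receptor, by 0.56 ± 0.06. *Mttp*, which loads lipid onto apolipoprotein B, did not pass (-0.15 ± 0.11, adjusted p = 0.31). For retinol and iron, the receptor of the retinol binding protein *Stra6* rose by 1.62 ± 0.35 at 5 to 29 counts, the iron exporter *Slc40a1* by 0.93 ± 0.13 and *Bmp6*, which induces hepcidin, by 0.68 ± 0.13. Transferrin receptors *Tfrc* (1003, 1064 and 895 CPM in WT, 637, 621 and 648 CPM in knockout replicates) and *Tfr2* fell by 0.64 ± 0.06 and 0.98 ± 0.22. *Fcgrt*, the receptor that recycles albumin, fell by 1.41 ± 0.25. *Lrp1*, *Lrp8*, *Lcat*, *Hfe* and *Hfe2* did not pass either, and *Abca1* and *Tfr2* lost their calls without the 3 libraries highest in *Alb* (adjusted p = 0.083 and 0.17).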

How the data were processed

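RNA was measured by RNA-Seq in 3 WT and 3 *Bdh2*-knockout ASC samples with a TruSeq kit. Adaptors and poor reads were removed, Hisat2 2.0.5 aligned the rest to GRCm38, and FeatureCounts assigned them to genes. The authors deposited the resulting raw counts, not normalized, and gene lengths. The annotation release, strand setting and treatment of multi-mapping reads are not given in the sources used here. The labels name Trizol for extraction and the methods an RNeasy kit. Reads shared by paralogs or overlapping genes may have been lost or misassigned.

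From these, edgeR 4.0.16 under R 4.3.3 gave TMM library sizes, the filterByExpr filter and the quasi-likelihood test of genotype alone (glmQLFTest), with Benjamini-Hochberg adjustment over 16758 genes and a threshold of 0.05. DESeq2, the test of the study, served here as an alternative (version 1.42.0), as did voom of limma 3.58.1. FPKM were computed from the counts and deposited lengths, and intervals of count ratios (95%, exact binomial) cover counting error only. Lines on *Alb* were weighted by 1/(CPM + 0.5). Read sharing was taken from GENCODE M21 transcripts in stretches of 50 bases. The scripts were tested on simulated data. Python 3.11.15 with pandas 2.3.3 read the sequences, and matplotlib 3.10.9 drew the plots.

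The genes and all lists were chosen with earlier results of these data known. The named genes are the 55, all transcription factors, receptors and partners listed, the 3 largest called changes and the 3 highest levels of other lists, and the 10 highest others with the order of *Alb* and 4-fold ratios. Results for some of these genes, counted in their lists, are not reported here. Named outside this rule, after their values were seen, were *Bdh2* and marker genes given as counts, and the remaining other visceral endoderm genes. Alternatives tried were other scalings (median-of-ratios factors, plain totals), DESeq2, limma-voom, other filters, the replicate block, each library left out, and *Alb* as a covariate. Fits without the 3 libraries highest in *Alb*, the lines on *Alb* and the alternatives for the other lists were chosen after seeing the data.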

Additional observations from a re-analysis of the deposited data

How the results depend on the processing

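Of the 48 genes tested as reported, 31 were again lower with median-of-ratios factors and 35 with plain library totals. DESeq2 called 5 lower (0 visceral endoderm genes and 5 other liver genes) and limma-voom 3 (0 and 3). Without the filter on low counts 51 of 55 were lower (6 and 45), and with a mean count of at least 50 it was 24 of 32. Leaving out each library in turn gave 2 to 50 lower for all genes, 0 to 7 for the visceral endoderm genes and 2 to 43 for the other liver genes, with 1 higher each time. With *Alb* as a covariate 2 were lower (0 and 2), and without the 3 libraries highest in *Alb* 5 were lower (1 and 4) and 0 higher, of 39 tested. With the replicate block 45 of 48 were lower, 6 of them visceral endoderm genes. Over all 16758 tested genes, calls in either direction were 6999 with median-of-ratios factors, 7182 with plain totals and 6452 with the block. They were 7314 of 31384 without the filter and 6359 of 12718 at a mean count of at least 50. Equal replicate numbers did not deviate together (correlations -0.16, 0.045 and 0.21 for numbers 1, 2 and 3), and WT replicate 1 went best with knockout replicate 2 (0.30), so these numbers are names and no pairing. The library order of *Alb* held for 36 genes with plain totals, 38 without the filter and 24 at a mean count of at least 50. With *Alb* as a covariate the log2 fold change turned positive for *Gc* (0.27), *Rbp4* (0.012), *Apob* (0.28), *Apoa2* (0.043), *Apoa4* (0.83), *Apoa5* (0.65), *Serpina1b* (0.034), *Serpina1c* (0.053), *Itih4* (0.12), *Fgb* (0.068), *Cps1* (0.38), *Hamp* (0.47), *Cyp3a11* (0.20), *Mup3* (0.080), *G6pc* (0.18), *Pck1* (0.32), *Foxa1* (0.31), *Prox1* (0.16), *Zhx2* (0.10) and *Lcat* (0.37). Without the 3 libraries highest in *Alb* it did so for *Gc* (0.27), *Apoe* (0.011), *Apob* (0.29), *Apoa2* (0.073), *Apoc1* (0.071), *Pck1* (0.037), *Creb3l3* (0.25), *Zhx2* (0.26), *Lcat* (0.62), *Mttp* (0.033), *Hfe* (0.068) and *Hfe2* (0.20), and *Hhex* turned to -0.0020. Without the filter *Apoe* (0.0043) and *Prox1* (0.0040) changed sign, and with plain totals *Hhex* (-0.0056). Leaving out each library in turn also turned the sign of genes that were not called as reported, within ranges of -0.037 to 0.028 for *Apoe*, -0.75 to 0.26 for *Foxa1*, -0.088 to 0.16 for *Hhex*, -0.19 to 0.18 for *Prox1*, -0.17 to 0.11 for *Zhx2*, -0.095 to 0.041 for *Lrp1* and -0.83 to 0.16 for *Lcat*, which passed only without WT replicate 3 (adjusted p = 0.038). The cause of these changes was not tested. Genes of under about 3 counts per library are at the limit of the depth.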
